A study of Mus musculus with 4 samples.

Results

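The genes described here are the mouse zinc finger protein genes whose symbol is Zfp followed by 3 digits and, for some, a letter. Membership was set by symbol alone, although earlier results of these data were known when the members were chosen. Of the 12067 genes in the count table, 184 carry such a name. Most encode C2H2 zinc finger proteins, in which short loops held by a zinc ion read DNA or RNA sequence. Many also carry a Krüppel-associated box (KRAB), a domain that in many of these proteins binds the corepressor Trim28, which brings the histone H3K9 methyltransferase Setdb1 and the HP1 proteins to retroelements and imprinted loci. Genes of this kind lie in runs of tandem copies on several chromosomes, and their products are often low in abundance.

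The data are Quant-seq 3′ mRNA counts of KL cells, the Lin- cKIT+ Sca-1- myeloid progenitors of the bone marrow. Donor-derived CD45.2+ KL cells were sorted from congenic Ptprca recipients, which express CD45.1, after transplantation of donor cells. There were 4 libraries in 2 groups. The 2 BcorΔE9-10 libraries carried the scl-Cre-ERT transgene with the floxed allele Bcorfl/y, and the 2 BcorWT libraries carried Bcorfl/y without the Cre. Donors of both groups were male and had received 5 mg tamoxifen in all at 3 to 6 months of age, female recipients were irradiated with 5.5 Gy, and marrow was taken from the recipients. Recipients of whole marrow were assessed after 20 weeks, and the sources used here do not state whether these libraries came from them or from recipients of sorted KL cells. Cre expression was driven from stem cell regulatory sequence of Scl (Tal1), so that recombination precedes the KL stage, and excision of the floxed exons shifts the reading frame of Bcor and leaves a truncated protein. The comparison asks how the transcripts of these genes differ in progenitors that carry the truncated Bcor, a subunit of a variant Polycomb repressive complex. The sources used here do not state how many animals contributed to each library, and p-values measure only the spread between these 4 libraries.

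The libraries held 3825289.5 to 6253100.5 counts. Levels are given in CPM, counts scaled to library size and TMM factors, on which scale 3 counts equal 0.489 to 0.876 CPM. All 9 markers of KL cells were in the table and summed to 7712.8 to 10745.5 CPM. Of these, Mpo stood at 4284 to 6888 CPM and Kit at 29.4 to 61.9 CPM. Ly6a, which encodes Sca-1, stood at 0 to 3.80 CPM, and 0 of 5 T cell and 0 of 4 macrophage markers were in the table. Of 6 B cell markers, Cd79b and Ebf1 were in the table and summed to 9.41 to 17.5 CPM. The 7 neutrophil markers summed to 62938 and 154162 CPM in the BcorΔE9-10 libraries and to 93814 and 141318 CPM in the BcorWT libraries. The groups thus overlapped, and in every library this sum lay above that of the KL markers. The 4 erythroid markers in the table, all globin genes, summed to 73.0 and 69.8 CPM in BcorΔE9-10 and to 19.3 and 45.9 CPM in BcorWT. The part of these markers in the results was not tested. Bcor itself had 104 and 113 counts in BcorΔE9-10 and 58 and 79 in BcorWT, a log2 fold change of 0.25 ± 0.36 (SE), but a 3′ tag lies outside the deleted exons and does not check the genotype. BcorWT replicate 2 stood apart from the other libraries. Gm42418, an abundant transcript, took 1.43% of its counts against 14.3 to 27.9% in the other libraries.

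The 184 members gave 0.252 to 0.323% of the counts of a library, and their median count was 43.5 and 47.5 in the BcorΔE9-10 libraries and 24.0 and 35.0 in the BcorWT libraries. Their mean CPM ran from 1.63 to 161, with a median of 7.48, and 135 of the 184 had a mean of at least 20 counts per library. A KRAB domain was found in the translated transcripts of 80 members and not in 103, while Zfp783, a transcribed pseudogene, had no complete coding transcript. C2H2 fingers numbered 0 to 36 a protein, with a median of 11 in members with KRAB and 7 in members without. The annotation holds 341 protein-coding genes with such names, and 183 of them were in the table.

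No member passed an adjusted p of 0.05 in edgeR's quasi-likelihood test, in which 0.0166% of all genes did (2 of 12067), and the lowest adjusted p of a member was 0.945. At an unadjusted p under 0.05, 1 member was higher in BcorΔE9-10 (1.34% of all genes were) and 3 were lower (3.07% of all genes were), so both shares, 0.543% and 1.63%, lay below those of the table. Limma-voom and DESeq2 called 0 members as well, with 4 and 43 calls over all genes. Fewer cells of a type and less RNA per cell cannot be told apart in these bulk libraries.

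The 4 members with an unadjusted p under 0.05 were Zfp800, higher in BcorΔE9-10, and Zfp414, Zfp523 and Zfp385c, lower. None of them has a KRAB domain. Zfp800 (chr6:28239927-28398005, minus strand, 6 fingers) had 40.7 and 39.6 CPM in the BcorΔE9-10 libraries and 24.2 and 13.7 CPM in the BcorWT libraries. Both BcorΔE9-10 values lay above both BcorWT values, and the log2 fold change was 1.09 ± 0.37 (SE, with an unadjusted edgeR p of 0.0201, adjusted to 0.945). It came to 0.73 without BcorWT replicate 2 and to 1.54 without BcorWT replicate 1. Zfp414 (chr17:33629090-33631779, plus strand) had 50.1 and 45.2 CPM in BcorΔE9-10 and 49.6 and 299 CPM in BcorWT. The groups overlapped, since BcorWT replicate 1 stood with the BcorΔE9-10 libraries and BcorWT replicate 2 stood alone with 1590 counts, and the log2 fold change of -1.88 ± 0.71 (SE, with an unadjusted edgeR p of 0.0301) came to -0.061 without BcorWT replicate 2. Zfp414 shares its strand and locus with Gm20507, so its counts are uncertain. The same limit holds for all 44 members that overlap another annotated gene on their strand, Zfp800 (Gm5303) and Zfp385c (Gm44544) among them.

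Zfp523, the mouse counterpart of ZNF76 and a relative of the promoter-binding activator Zfp143, lies at chr17:28177129-28205886 and had 24.4 and 17.6 CPM in BcorΔE9-10 and 26.0 and 69.2 CPM in BcorWT. Zfp385c (chr11:100627543-100692455) had 14.8 and 15.7 CPM against 19.0 and 43.7 CPM. In both genes the groups did not overlap, but BcorWT replicate 1 stood close to the BcorΔE9-10 libraries and BcorWT replicate 2 was the high one. Their log2 fold changes were -1.19 ± 0.49 and -1.05 ± 0.45 (SE, unadjusted edgeR p of 0.0405 and 0.0468), and they came to -0.31 and -0.32 without BcorWT replicate 2.

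The promoters of these 4 genes are shown with that of Zfp141, the KRAB member with the lowest p, so that the members with an unadjusted p under 0.05 can be set beside a KRAB gene. They are the first listed RefSeq windows on GRCm38.p6, 300 bases each, running from 250 bases before to 50 bases after a transcript start, 5′ to 3′ on the strand of the gene. Capitals mark matches on either strand to GGGCGG (the GC box), CCAAT (the CCAAT box), CCGGAAG (an ETS core) and AAGATGG (a YY1 core). A match is a description of letters and not evidence of binding. The windows are chr6:28397956-28398255 for Zfp800, chr17:33628842-33629141 for Zfp414, chr17:28176946-28177245 for Zfp523, chr11:100650644-100650943 for Zfp385c and chr7:42505704-42506003 for Zfp141.
Zfp800: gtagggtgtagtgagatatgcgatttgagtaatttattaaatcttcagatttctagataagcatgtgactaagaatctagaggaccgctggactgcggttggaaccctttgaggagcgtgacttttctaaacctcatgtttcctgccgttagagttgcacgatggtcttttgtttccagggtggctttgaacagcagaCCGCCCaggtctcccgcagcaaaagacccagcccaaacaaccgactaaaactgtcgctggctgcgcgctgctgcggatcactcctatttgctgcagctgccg
Zfp414: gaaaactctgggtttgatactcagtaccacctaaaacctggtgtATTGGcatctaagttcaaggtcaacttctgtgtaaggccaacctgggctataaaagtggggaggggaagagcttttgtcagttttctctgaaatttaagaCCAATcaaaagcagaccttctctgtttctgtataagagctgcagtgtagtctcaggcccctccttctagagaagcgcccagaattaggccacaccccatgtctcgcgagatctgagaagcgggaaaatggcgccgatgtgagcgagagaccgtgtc
Zfp523: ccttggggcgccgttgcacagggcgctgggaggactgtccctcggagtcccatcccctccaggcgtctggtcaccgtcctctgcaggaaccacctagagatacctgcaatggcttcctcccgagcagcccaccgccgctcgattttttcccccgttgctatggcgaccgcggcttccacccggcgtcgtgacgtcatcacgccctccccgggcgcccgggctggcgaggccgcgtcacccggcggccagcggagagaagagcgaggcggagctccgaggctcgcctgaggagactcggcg
Zfp385c: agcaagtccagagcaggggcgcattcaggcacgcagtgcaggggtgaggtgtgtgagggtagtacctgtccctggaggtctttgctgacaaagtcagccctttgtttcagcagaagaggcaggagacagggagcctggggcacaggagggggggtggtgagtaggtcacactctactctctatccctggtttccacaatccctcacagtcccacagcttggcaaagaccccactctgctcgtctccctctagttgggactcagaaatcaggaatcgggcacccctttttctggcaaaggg
Zfp141: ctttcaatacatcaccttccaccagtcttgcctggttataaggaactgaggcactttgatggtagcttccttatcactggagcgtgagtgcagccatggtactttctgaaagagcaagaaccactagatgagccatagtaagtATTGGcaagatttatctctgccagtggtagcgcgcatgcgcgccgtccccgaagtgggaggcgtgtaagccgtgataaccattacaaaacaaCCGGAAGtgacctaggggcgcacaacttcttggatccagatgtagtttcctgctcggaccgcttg

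Zfp523 had the most GC-rich of these windows, at 70.0% GC with 34 CpG, and Zfp414 the least, at 48.3% with 8 CpG. Zfp385c held 4 CpG, in the first of 3 listed windows, which starts inside the annotated gene and not at its 5′ end. A GC box was in the window of Zfp800, CCAAT or its reverse complement was in the window of Zfp414 at 2 places and in that of Zfp141 at 1, and the ETS core was in that of Zfp141. RefSeq windows were matched for 155 of the 184 members. The GC box was in 41.7% of the windows of 72 members with KRAB and in 62.2% of those of 82 members without, against 65.5% of 8396 windows of genes in the table and 35.7% of all 32851 windows. The CCAAT box was in 48.6% of the windows of members with KRAB, 37.8% of those without, 38.9% of those of genes in the table and 37.4% of all windows. The ETS core was in 25% and 17.1% of the windows of members with and without KRAB, 20.5% of those of genes in the table and 8.86% of all windows. The YY1 core was in 7.74% of the members' windows, 7.98% of those of genes in the table and 6.34% of all windows. Median window GC was 52.8% in members with KRAB, 61.8% in members without and 61.0% over genes in the table.

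**Figure D1:**
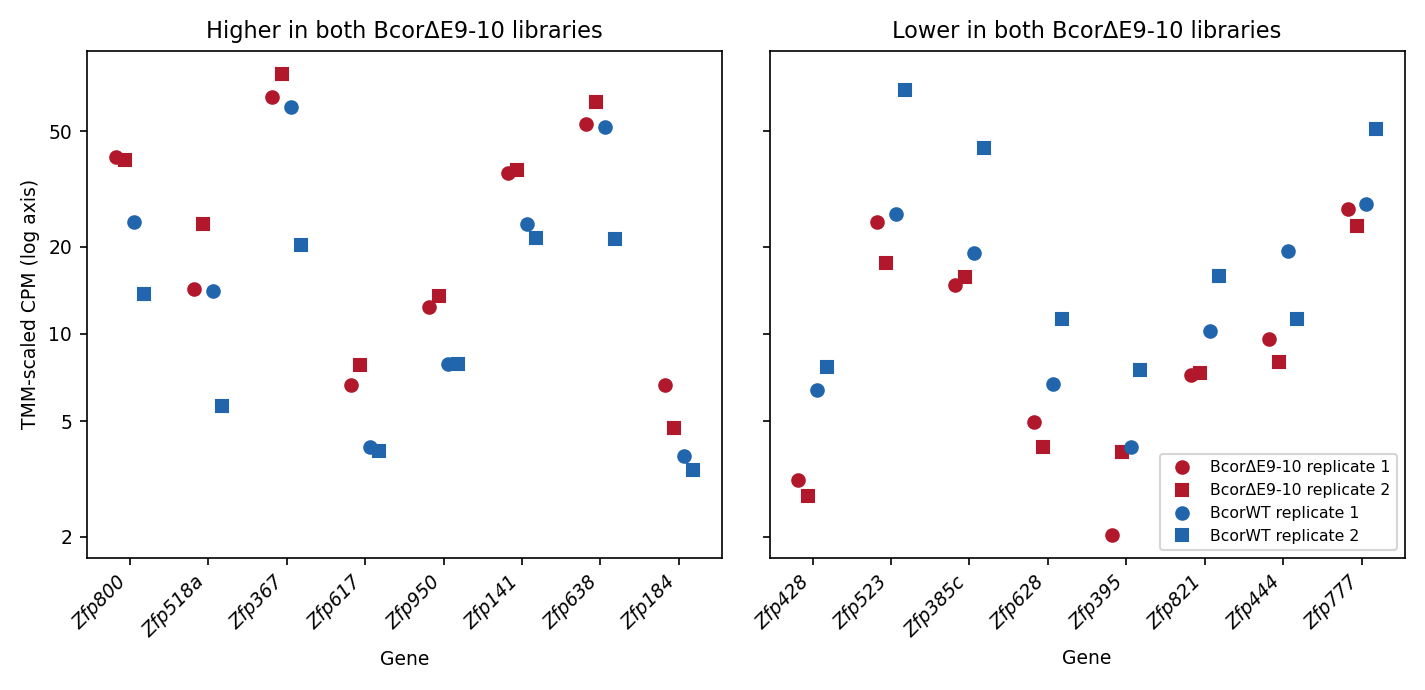
TMM-scaled CPM (log axis) of the members with non-overlapping groups, a mean of at least 20 counts, and the 8 highest or 8 lowest log2 fold changes. Each point is 1 library, red for BcorΔE9-10 and blue for BcorWT, and squares mark replicate 2. Among the lower genes, BcorWT replicate 2 is the highest library in 7 of 8, and Zfp444 is the exception.

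Besides Zfp800, the 7 members with the highest fold changes among those with non-overlapping groups and a mean of at least 20 counts were Zfp518a, Zfp367, Zfp617, Zfp950, Zfp141, Zfp638 and Zfp184. Zfp518a, related to a partner of the H3K9 methyltransferase G9a, had 14.2 and 24.0 CPM in BcorΔE9-10 and 14.0 and 5.65 CPM in BcorWT, a log2 fold change of 0.98 ± 0.53 (SE). Zfp367, first described in erythroid cells, had 65.6 and 78.7 CPM against 60.5 and 20.3 CPM, a log2 fold change of 0.85 ± 0.50. Zfp638, a nuclear protein that binds nucleic acid and takes part in silencing of unintegrated retroviral DNA, had 52.9 and 62.8 CPM against 51.7 and 21.3 CPM, a log2 fold change of 0.67 ± 0.44. In these 3 genes BcorWT replicate 1 stood just under the lower BcorΔE9-10 library and BcorWT replicate 2 stood well below. Without BcorWT replicate 2 their log2 fold changes came to 0.45, 0.26 and 0.16.

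The other 4 of these genes all encode KRAB proteins, and in them the BcorWT libraries stood close to each other. Zfp141 (chr7:42473386-42505740, 10 fingers) had 35.9 and 36.7 CPM in BcorΔE9-10 and 23.9 and 21.5 CPM in BcorWT, a log2 fold change of 0.68 ± 0.31 (SE, with an unadjusted edgeR p of 0.0637, adjusted to 0.945) that ranged from 0.60 to 0.75 when any 1 library was left out. Zfp950 (chr19:61053840-61140840, 17 fingers) had 12.4 and 13.5 CPM against 7.88 and 7.90 CPM, with a log2 fold change of 0.71 ± 0.41 and a range of 0.65 to 0.78. Zfp617 (chr8:71908635-71934629, 14 fingers), which overlaps Zfp882 on the same strand, had 6.65 and 7.82 CPM against 4.09 and 3.95 CPM, with a log2 fold change of 0.85 ± 0.52 and a range of 0.73 to 0.96. Zfp184 (chr13:21945094-21960779, 18 fingers) had 6.65 and 4.73 CPM against 3.80 and 3.39 CPM, with a log2 fold change of 0.66 ± 0.57 that came to 0.40 without BcorΔE9-10 replicate 1 and 0.89 without BcorΔE9-10 replicate 2. In contrast to Zfp518a, Zfp367 and Zfp638, the log2 fold changes of Zfp141, Zfp950 and Zfp617 changed little when either BcorWT library was left out. All these genes were picked from the same libraries for non-overlapping groups and high fold changes. Their kept direction was therefore favoured by the choice and is a description only. None of them had an adjusted p below 0.945.

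Zfp523 and Zfp385c were joined at the lower end by Zfp428, Zfp628, Zfp395, Zfp821, Zfp444 and Zfp777. Zfp428 (chr7:24507006-24515682, 1 finger match) had 3.14 and 2.77 CPM in BcorΔE9-10 and 6.42 and 7.72 CPM in BcorWT. Its log2 fold change was -1.26 ± 0.55 (SE, with an unadjusted edgeR p of 0.0523) and stayed between -1.38 and -1.12 when any 1 library was left out, on counts of 17, 17, 22 and 41. Zfp444, which binds the promoter of an endothelial scavenger receptor gene, had 9.61 and 7.99 CPM against 19.3 and 11.3 CPM, a log2 fold change of -0.79 ± 0.45 that came to -0.36 without BcorWT replicate 1. It was the one member of this group in which BcorWT replicate 1 was the highest library.

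In the remaining 4, BcorWT replicate 2 was the highest library. Zfp628, which is needed in the male germ line, had 4.99 and 4.08 CPM in BcorΔE9-10 against 6.72 and 11.3 CPM, and Zfp821 had 7.21 and 7.34 CPM against 10.2 and 15.8 CPM. Zfp395 had 2.03 and 3.91 CPM against 4.09 and 7.53 CPM. Zfp777, the only KRAB protein among the 8 lowest, had 27.0 and 23.5 CPM against 28.0 and 51.0 CPM. Their log2 fold changes lay between -1.0 and -0.65, with unadjusted edgeR p of 0.0923 for Zfp628 and 0.0944 for Zfp821. Without BcorWT replicate 2 they came to -0.57 for Zfp628, -0.45 for Zfp395, -0.49 for Zfp821 and -0.15 for Zfp777, and without BcorΔE9-10 replicate 1 and replicate 2 that of Zfp395 was -0.58 and -1.51.

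Across all 184 members, 112 had a log2 fold change above 0 and 72 below, 60.9% higher against 47.7% of all genes. The median log2 fold change was 0.13, with quartiles of -0.26 and 0.41 and a range of -1.88 to 1.58, against a median of -0.027 for all genes. Both BcorΔE9-10 values lay above both BcorWT values in 44 members (23.9%, against 16.8% of all genes) and below them in 24 (13.0%, against 17.1% of all genes). These counts describe the list and were not tested. BcorWT replicate 2 was the lowest library for 82 of the 184 members, against 44 for BcorWT replicate 1 and 23 and 35 for the BcorΔE9-10 libraries. No such counts over all genes are given here, so these allow no comparison. The median absolute log2 difference between the 2 BcorWT libraries was 0.51, above the median absolute log2 fold change of 0.34 and above the 0.30 between the 2 BcorΔE9-10 libraries. Over all genes these medians were 0.57, 0.33 and 0.31, so the order was not particular to the members.

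Without BcorWT replicate 2, 96 members (52.2%) had a log2 fold change above 0, against 50.3% of all genes, and the members' median was 0.030. Without BcorWT replicate 1 the count was 108 (58.7%, against 51.2% of all genes) and the median 0.23. Taken pair by pair, the members' median log2 difference was 0.20 for either BcorΔE9-10 library against BcorWT replicate 2, 0.10 for BcorΔE9-10 replicate 1 against BcorWT replicate 1, and -0.022 for BcorΔE9-10 replicate 2 against BcorWT replicate 1. Against BcorWT replicate 1 alone, both BcorΔE9-10 libraries were higher in 74 members (40.2%, against 33.5% of all genes) and lower in 63 (34.2%, against 35.7% of all genes). Without BcorWT replicate 2 the share of members with a log2 fold change above 0 was therefore near that of all genes, while the share with both BcorΔE9-10 libraries higher was not, and neither was tested.

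**Figure D2:**
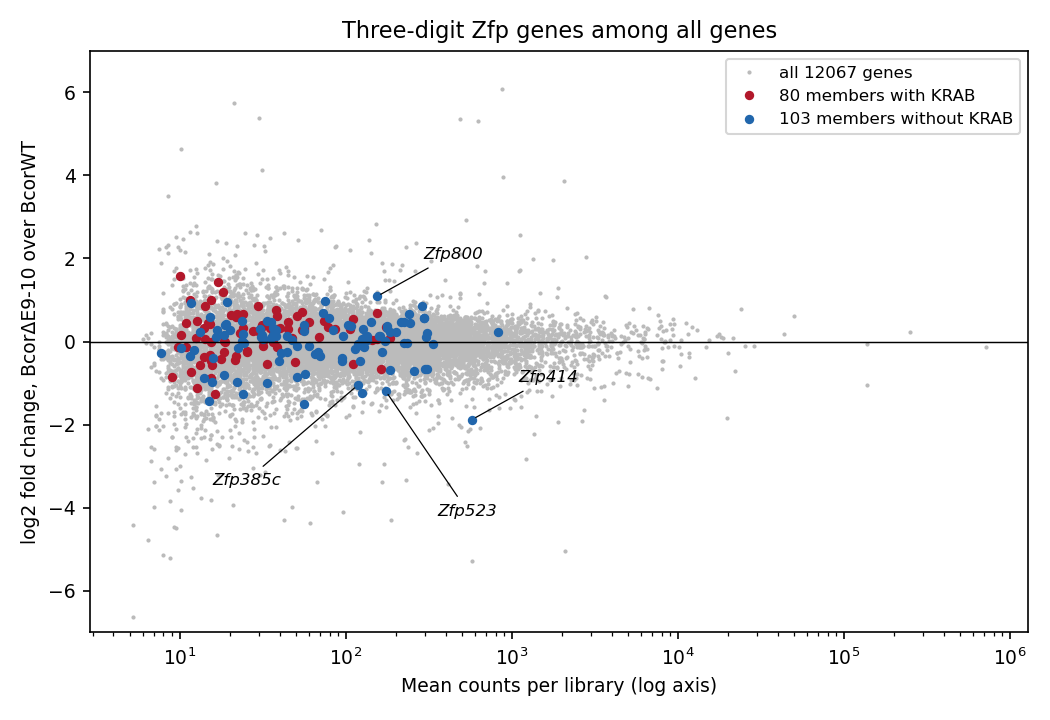
Log2 fold change of BcorΔE9-10 over BcorWT (vertical) against the mean counts per library (log axis) for all 12067 genes in grey and for 183 members in colour. Zfp783, which has no complete coding transcript, is drawn only among the grey points. The 4 named members have an unadjusted p under 0.05, and the members lie inside the spread of the other genes.

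The 80 members with a KRAB domain, as found by a sequence profile, had a higher median log2 fold change than the 103 members without, a description that was not tested. In the KRAB group 53 of 80 (66.2%) had a log2 fold change above 0 and the median was 0.25, while in the other group 59 of 103 (57.3%) did and the median was 0.099. Groups did not overlap in 25 KRAB members that were higher (31.2%) and 10 that were lower (12.5%), against 19 (18.4%) and 14 (13.6%) of the members without KRAB and 16.8% and 17.1% of all genes. The 36 KRAB genes with other names gave 25 higher and a median of 0.20, with non-overlapping groups in 7 that were higher (19.4%) and 2 that were lower (5.56%), and the 146 genes with other names and 3 or more fingers gave 90 higher and a median of 0.15. KRAB members had fewer reads, with a median over genes of 25.5 mean counts against 68.2 for members without. Median GC of the last 300 transcript bases, the measure of 3′ composition used in the next comparison, was 39.2% in KRAB members, 42.0% in members without and 43.0% over all genes. Without BcorWT replicate 2 the medians came to 0.10 for the 80 KRAB members, 45 of which were higher, and -0.0061 for the 103 others, 51 of which were higher.

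**Figure D3:**
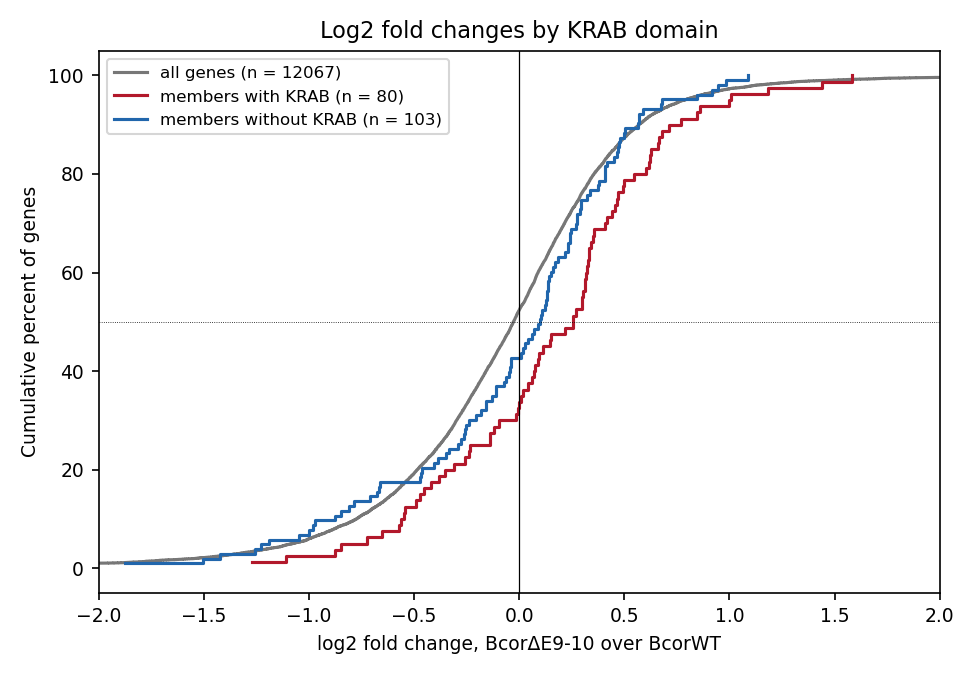
Cumulative percent of genes (vertical) by log2 fold change of BcorΔE9-10 over BcorWT (horizontal) for all 12067 genes, the 80 members with KRAB and the 103 without. The dotted line marks 50%, where the curve of the KRAB members crosses at 0.25 and that of all genes at -0.027.

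The log2 fold changes followed the base composition of the transcripts' 3′ ends, where Quant-seq reads start. GC content of the last 300 bases of 1 annotated transcript per gene had a Spearman rho of -0.46 with log2 fold change over the 184 members and of -0.39 over the 11948 genes with a value. It was -0.26 in the 80 KRAB members and -0.57 in the 103 others. These are relations across genes, which share libraries and are not independent replicates. Within the BcorWT group, the difference of replicate 1 minus replicate 2 had a rho of -0.46 with GC over the members. BcorWT replicate 2 enters both this difference and the log2 fold change, so the rho of -0.46 in each is not independent. The deviation of BcorWT replicate 2 from the mean of the libraries had a rho of 0.57 with GC over the members. Within the BcorΔE9-10 group the difference of replicate 1 minus replicate 2 had a rho of 0.25 with GC over the members and 0.40 in the members without KRAB, where the sign depends only on the numbering of the replicates. Without BcorWT replicate 2 the rho with log2 fold change was -0.059 over the members and -0.029 over all genes.

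Split into 3 groups of nearly equal size by GC, the members at the low end (23.0 to 37.0%) were mostly higher. There 48 of 62 had a log2 fold change above 0 and the median was 0.30, against 70.0% and 0.21 for the 3193 genes of all kinds within these limits. In the middle group (37.0 to 44.7%), 40 of 61 were higher with a median of 0.14, against 53.6% and 0.036 for 3761 genes. In the group of highest GC (up to 64.0%), 24 of 61 were higher with a median of -0.21, against 30.2% and -0.24 for 5199 genes. The 3′ ends of the 8 highest named members ran from 26.0% GC in Zfp141 to 48.3% in Zfp638, and those of the 8 lowest from 40.7% in Zfp395 to 61.0% in Zfp628. Zfp638 alone overlapped the lower group, since the other 7 of the highest had 37.0% or less. The part of base composition in the members' differences was not tested beyond the values without BcorWT replicate 2.

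**Figure D4:**
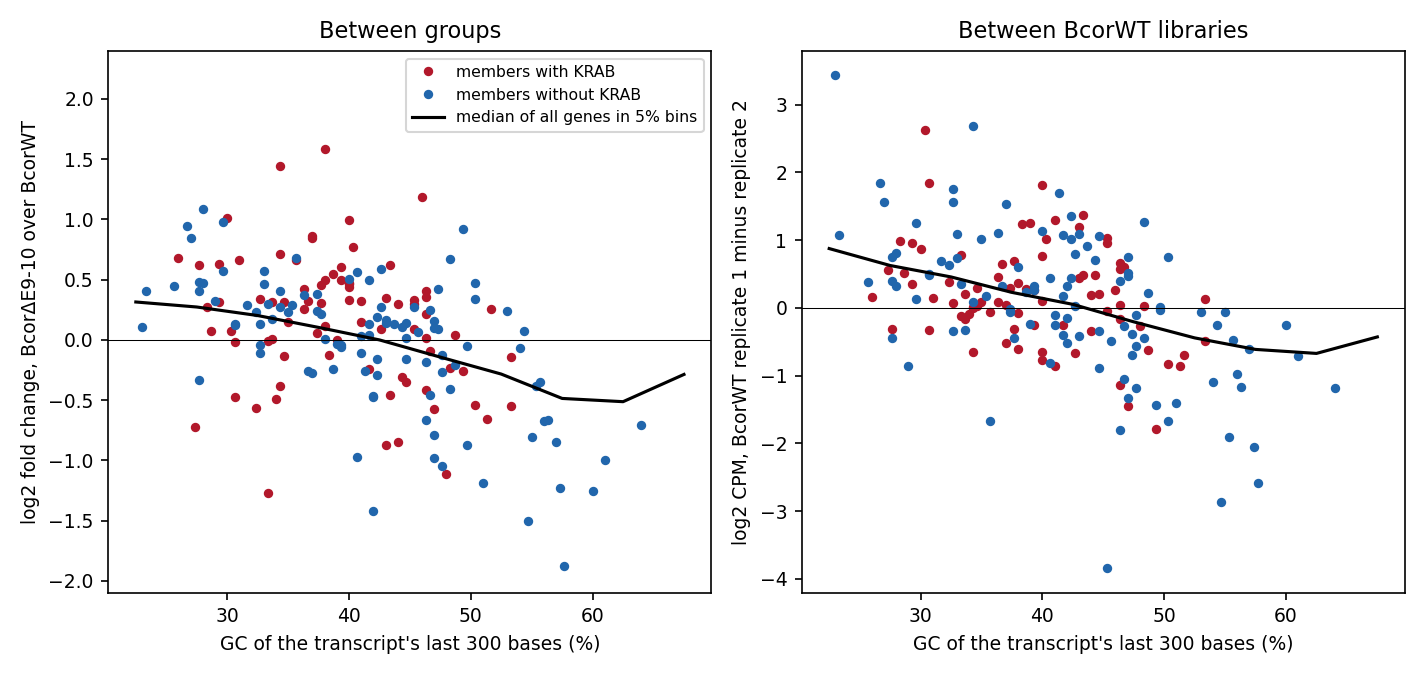
Log2 fold change between the groups (left) and log2 CPM of BcorWT replicate 1 minus replicate 2 (right) against GC content of the last 300 transcript bases, for members with and without KRAB. The black line joins medians of all genes in bins of GC. Both panels slope down, with a rho of -0.46 over the 184 members in each.

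Members lay on 20 chromosomes, with 41 on chromosome 7. Runs of 4 or more members with gaps of at most 1000000 bases numbered 11 and held 72 members. The 4 KRAB genes of the run at chr7:41633203-43593235 (Zfp788, Zfp141, Zfp715 and Zfp719) all had log2 fold changes above 0, with a median of 0.50. Zfp719 had 3.14 and 3.75 CPM in BcorΔE9-10 and 1.46 and 2.26 CPM in BcorWT. Zfp715 had 12.2 and 12.1 CPM against 10.5 and 9.03 CPM, and Zfp788 had 2.96 and 3.26 CPM against 3.80 and 1.32 CPM. The groups did not overlap in Zfp141, Zfp715 and Zfp719 and overlapped in Zfp788. Over all genes 16.8% were higher without overlap, and this run was described because its median was the highest of the 11.

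All 5 KRAB genes of the run at chr4:146449023-147848366 had log2 fold changes above 0 too, from 0.059 for Zfp993 to 1.00 ± 0.67 (SE) for Zfp933, with a median of 0.30. Zfp933 had 4.62 and 3.26 CPM in BcorΔE9-10 and 2.04 and 1.88 CPM in BcorWT. The last 300 bases of Zfp991 and Zfp993 were at least 99.0% identical over 297 to 300 aligned bases with transcripts of Zfp992 and Znf41-ps. Those of Zfp993 also matched Zfp991, and those of Zfp984 were 97.8% identical with Gm13212 where aligned. Reads of these genes could have been split between copies, so their separate values are uncertain.

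The run at chr7:4915217-5053723 holds 5 members without KRAB (Zfp628, Zfp579, Zfp524, Zfp865 and Zfp580), of which 4 had log2 fold changes below 0, with a median of -0.87. Zfp524 had 12.8 and 16.3 CPM in BcorΔE9-10 and 12.8 and 54.8 CPM in BcorWT, so that BcorWT replicate 2 alone stood high. Zfp579 had 1.66 and 3.75 CPM against 4.67 and 4.89 CPM, and Zfp580 had 3.33 and 0.816 CPM against 3.80 and 3.76 CPM. Zfp865 had 18 and 21 counts in BcorΔE9-10 and 0 and 28 in BcorWT, where a count of 0 allows up to 0.876 CPM. Several genes of this run overlap others in the annotation (Ccdc106, Fiz1 and Gm44973 among them), and the strand setting of the counting is not given in the sources used here.

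The run with the most members, 11 KRAB genes at chr13:67312998-67827002, held both the highest and one of the lowest log2 fold changes. Zfp595 had 16 and 16 counts in BcorΔE9-10 and 3 and 5 in BcorWT, and Zfp729b had 20 and 33 in BcorΔE9-10 and 4 and 11 in BcorWT. Their log2 fold changes were 1.58 ± 0.77 and 1.44 ± 0.69 (SE). Zfp273, with 6 and 18 counts in BcorΔE9-10 and 22 and 19 in BcorWT, had -1.27 ± 0.74. In all 3 the groups did not overlap, at counts where a few reads move the value. Of the 11 genes, 7 were above 0 and the median was 0.094. Other runs were mixed as well. Members above 0 numbered 4 of 9 at chr17:21008903-23564238, 3 of 9 at chr6:47835661-48623227 and 5 of 10 at chr7:127233061-127885996.

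**Figure D5:**
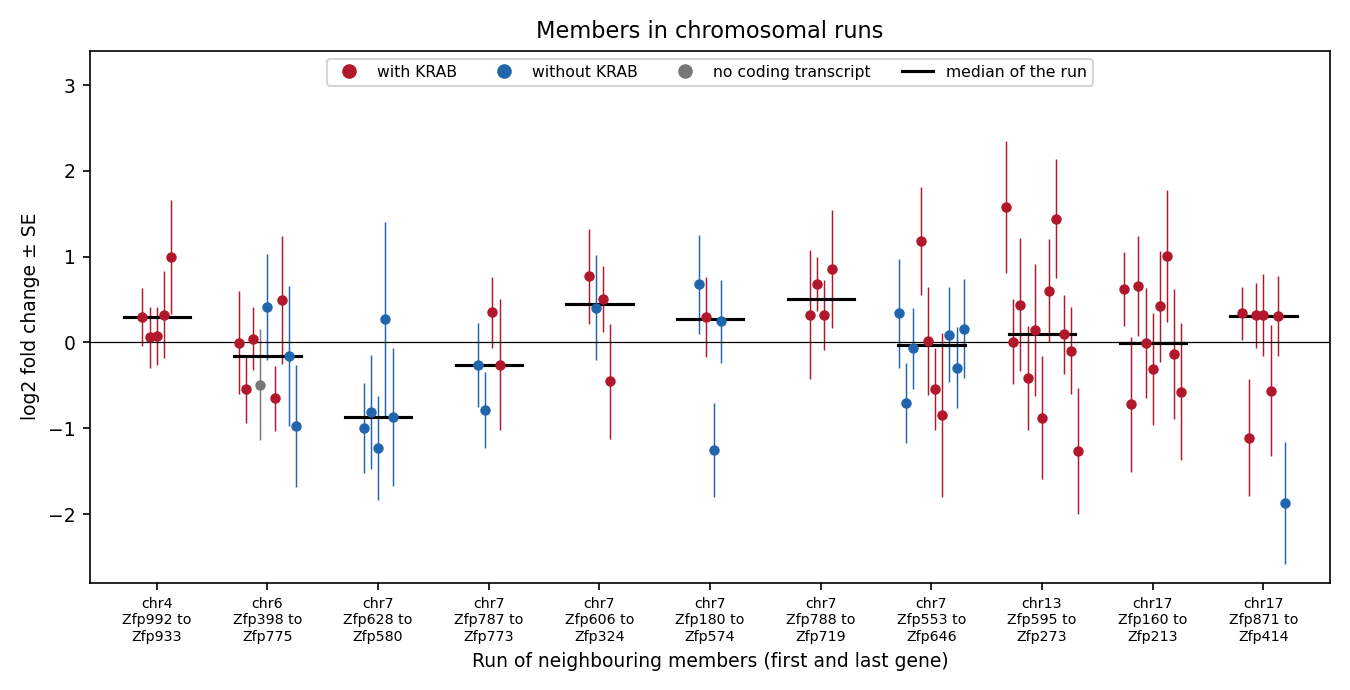
Log2 fold change of BcorΔE9-10 over BcorWT with its SE (bars) for the 72 members in 11 runs of neighbouring genes, named by chromosome and first and last gene. Black lines are medians of a run, from -0.87 in the run from Zfp628 to Zfp580 to 0.50 in the run from Zfp788 to Zfp719.

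Among the KRAB repressors of imprinted genes and retroelements, 4 of 5 listed members were in the table and Zfp708 was not among its genes. Zfp568, which represses a placental promoter of Igf2, had 27.2 and 24.0 CPM in BcorΔE9-10 and 19.3 and 15.8 CPM in BcorWT, groups that did not overlap, with a log2 fold change of 0.55 ± 0.34 (SE, with an unadjusted edgeR p of 0.151). Zfp445, which keeps imprints in the embryo, had 3.70 and 2.45 CPM against 5.55 and 0.564 CPM, a log2 fold change of 0.07 ± 0.97. Its direction changed with the library left out, from 2.39 without BcorWT replicate 1 to -0.85 without BcorWT replicate 2. Zfp809, which silences proviruses of murine leukaemia virus, had 4.62 and 4.73 CPM against 5.55 and 5.46 CPM, groups that did not overlap either, with a log2 fold change of -0.23 ± 0.53. Zfp932, a regulator of endogenous retroviruses, had 2.03 and 5.54 CPM against 5.26 and 4.52 CPM. The last 301 aligned bases of Zfp932 were 99.0% identical with Gm15446, a related gene, so its value is uncertain.

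Of 19 members listed as corepressors or chromatin partners, 18 were in the table, 11 with log2 fold changes above 0 and 7 below, and the median was 0.13 with a range of -0.67 to 0.98. None passed the test. Zfp148, which binds GC-rich promoters, had 69.3 and 67.6 CPM in BcorΔE9-10 and 53.4 and 39.1 CPM in BcorWT, groups that did not overlap, with a log2 fold change of 0.57 ± 0.32 (SE, with an unadjusted edgeR p of 0.116) that came to 0.36 without BcorWT replicate 2. Zfp687 and Zfp592 act together in a complex with Zmynd8. Zfp687 had 48.8 and 40.3 CPM against 31.0 and 109 CPM, and Zfp592 had 42.3 and 44.7 CPM against 39.4 and 49.9 CPM. The groups overlapped in both. Zfp687 had a log2 fold change of -0.66 ± 0.54 that came to 0.52 without BcorWT replicate 2, while Zfp592 had -0.040 ± 0.31. Zfp703, a corepressor of the NET family, had 51.0 and 42.2 CPM against 45.3 and 102 CPM, a log2 fold change of -0.67 ± 0.43 that came to 0.041 without BcorWT replicate 2.

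All 9 members listed as acting on RNA, ribosomes or the spindle were in the table, 7 with log2 fold changes above 0 and 2 below, with a median of 0.12. Zfp207, a kinetochore protein that loads Bub3 and the member with the highest mean CPM, had 181 and 167 CPM in BcorΔE9-10 and 146 and 148 CPM in BcorWT. Its groups did not overlap and its log2 fold change was 0.24 ± 0.30 (SE), within 0.19 to 0.30 when any 1 library was left out. Zfp622, which helps the large ribosomal subunit to mature, had 61.0 and 67.0 CPM against 46.4 and 63.4 CPM, and Zfp106, an RNA-binding protein needed in motor neurons, had 59.7 and 66.5 CPM against 73.0 and 44.8 CPM. Zfp706, a small protein that promotes exit from pluripotency in embryonic stem cells, had 77.6 and 54.1 CPM against 67.5 and 68.7 CPM, and its log2 fold change was -0.048 ± 0.33. Zfp706 shares 229 bases of its 3′ end at 97.4% with Gm11127. The groups overlapped in Zfp622, Zfp106 and Zfp706.

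Of 7 members listed as blood cell regulators, 3 were in the table and Zfp366, Zfp385a, Zfp521 and Zfp683 were not among its genes. Zfp335, a subunit of a histone H3K4 methyltransferase complex needed for T cell maturation, had 32.2 and 24.3 CPM in BcorΔE9-10 and 30.1 and 59.7 CPM in BcorWT, a log2 fold change of -0.67 ± 0.41 (SE). It came to -0.094 without BcorWT replicate 2. Zfp318, which controls the choice between IgM and IgD transcripts in B cells, had 4.62 and 5.05 CPM against 6.72 and 3.01 CPM, and Zfp467 had 2.22 and 1.79 CPM against 3.5 and 1.13 CPM. The groups overlapped in all 3.

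The proteins through which many KRAB domains act were measured beside them. All 21 listed genes of the KRAB corepressor and heterochromatin machinery were in the table, 14 with log2 fold changes above 0 and 7 below, with a median of 0.10, and 0 of 21 passed an adjusted p of 0.05 in edgeR's test. Trim28, the corepressor bound by KRAB, had 88.2 and 71.6 CPM in BcorΔE9-10 and 80.9 and 198 CPM in BcorWT, a log2 fold change of -0.81 ± 0.45 (SE, with an unadjusted edgeR p of 0.111). Setdb1 had 157 and 175 CPM against 167 and 142 CPM, a log2 fold change of 0.10 ± 0.31. The groups overlapped in both, and in Trim28 the BcorWT replicate 2 library alone stood high.

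Ehmt2, the methyltransferase G9a, was the 1 gene of 21 with an unadjusted p under 0.05, beside 3.07% of all genes lower and 1.34% higher at that p. It had 36.8 and 32.9 CPM in BcorΔE9-10 and 46.1 and 99.4 CPM in BcorWT, a log2 fold change of -1.07 ± 0.41 (SE, with an unadjusted edgeR p of 0.0333, adjusted to 0.945). At the other end of the list, Atrx, a chromatin remodeller at heterochromatin, had 303 and 295 CPM against 226 and 133 CPM, a log2 fold change of 0.74 ± 0.36 (with an unadjusted edgeR p of 0.0781). Mphosph8, a subunit of the HUSH silencing complex, had 38.1 and 35.5 CPM against 27.2 and 27.5 CPM, and Cbx1, an HP1 protein, had 159 and 138 CPM against 135 and 104 CPM. In Ehmt2 too BcorWT replicate 2 was the library that stood high. The groups did not overlap in 3 genes of the list that were higher (Atrx, Mphosph8 and Cbx1) and 3 that were lower (Ehmt2, Smarcad1 and Dnmt1), 14.3% of the list in each direction against 16.8% and 17.1% of all genes.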

How the data were processed

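Quant-seq 3′ libraries of donor-derived KL cells were analysed in 2 BcorΔE9-10 and 2 BcorWT samples, grouped by their labels. The authors aligned trimmed reads (cutadapt) to the mm10 genome by HISAT2, and made gene counts in subread, and the deposited table holds unnormalized counts per gene. The deposited values of BcorΔE9-10 replicate 2 and BcorWT replicate 1 were treated as estimated counts (expected counts), since a gene outside this family has values there that are not whole, and were rounded to whole numbers. The strand setting is not given in the sources used here.

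Members were the rows whose symbol matched the name pattern. The members and gene lists were chosen with earlier results of these data known. From the counts, edgeR 4.0.16 in R 4.3.3 was fitted over all 12067 genes with filterByExpr, which removed no gene, TMM scaling, a quasi-likelihood F test, a prior count of 0.125 and Benjamini-Hochberg adjustment. The SE is the size of the log2 fold change divided by the square root of F. Log2 CPM of single libraries used a prior count of 2. Limma-voom (limma 3.58.1) and DESeq2 1.42.0 were alternatives beside other scaling, filters, prior count and leaving out each library, and the fits were tested on simulated data. Same-numbered libraries deviated from their group means with a correlation of -0.094, and a block by number served only as an alternative.

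Positions, overlaps and 3′ ends came from GENCODE M21 on GRCm38, where all 184 members matched. KRAB domains and fingers were sought in translated coding transcripts, since no protein table was given: fingers by a C2H2 pattern, and KRAB with a profile built from 92 pattern-matched windows (pyhmmer 0.12.3, E-value under 0.01), a threshold set by looking at the domain hits. Similar 3′ ends were aligned with blastn 2.17.0 at 97% identity over most of the last 300 bases. Promoters came from RefSeq on GRCm38.p6. Members named with values are those with an adjusted p under 0.05 (none), the 8 highest and 8 lowest with non-overlapping groups and a mean of at least 20 counts, the 6 with the highest mean CPM, and members of the function lists. Members named for an unadjusted p under 0.05 or for their chromosomal run were chosen after their values were seen.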

Additional observations from a re-analysis of the deposited data

How the results depend on the processing

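With DESeq2 size factors, no filter, a prior count of 2, or without Gm42418 (chosen after seeing the data), the counts of genes and members called, the count of members above 0 and the medians stayed near the reported values. Genes called at an adjusted p under 0.05 numbered 5 with at least 10 counts in every library (140 members tested), 14 with the replicate number as a block, 4 with limma-voom, 43 with DESeq2, and 6 to 596 when 1 library was left out, the 596 without BcorWT replicate 1. Members called numbered 0 in every fit with all 4 libraries, the block included, and 0 to 10 when 1 library was left out. The 10 were called without BcorWT replicate 1, where BcorWT replicate 2 alone stands for its group and is assumed to vary like the others: Zfp414, Zfp524, Zfp367, Zfp523, Zfp385c, Zfp358, Zfp800, Zfp687, Zfp638 and Zfp703. Members higher at an unadjusted p under 0.05 numbered 0 to 21 and members lower 1 to 14 when 1 library was left out, and 1 was lower with the block in a paired fit and 1 with limma-voom. With 1 library left out, the medians ranged from 0.030 to 0.23 for all members, 0.10 to 0.36 for members with KRAB and -0.0061 to 0.10 for members without. The cause of these changes was not tested. Calls rose over all genes too in the fit without BcorWT replicate 1, so the members called there are not set apart from other genes. For the fits with 1 library left out, no share of all genes at an unadjusted p under 0.05 is given here. The counts of members higher and lower in those fits therefore allow no comparison with all genes. With 2 libraries a group and a median of 38.4 mean counts a member, differences may have gone undetected, and not only small ones. The absence of calls therefore does not show that the members were unchanged.

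Of 32 named members recomputed, 23 kept their direction in every fit and 9 did not. The 8 highest and 8 lowest had been named because their groups did not overlap. Leaving out 1 library could therefore hardly change their direction, and the count of 23 is no support for them. All 9 that changed direction had been named for their abundance or function. With 1 library left out, the log2 fold change ranged from -0.33 to 0.19 for Zfp706, -0.21 to 0.49 for Zfp106, -1.14 to 0.041 for Zfp703, -1.25 to 0.18 for Zfp932, -0.85 to 2.39 for Zfp445, -1.30 to 0.52 for Zfp687, -0.20 to 0.14 for Zfp592, -0.47 to 0.68 for Zfp318 and -0.80 to 0.81 for Zfp467. That of Zfp467 was 0.12 with limma-voom. Zfp445 and Zfp467 were not tested with at least 10 counts in every library.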
